A study of Homo sapiens with 4 samples.

Results

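The heat shock protein genes described here are HSP90AA1, HSP90AB1, HSP90B1, HSPA4, HSPA5, HSPA8, HSPA9, HSPD1, HSPE1 and HSPH1, read for peaks of the RNA-binding protein IGF2BP2 in Jurkat cells. A peak was taken as a member when its Ensembl gene identifier, with the version dropped, was that of one of these 10 genes, and when the largest part of its length lay in CDS (coding sequence), a UTR, a noncoding exon or an intron on the strand of the gene (a sense peak). These rules gave 78 of the 145715 peaks of replicate 1 and 89 of the 137934 peaks of replicate 2. Sense peaks on all genes numbered 74237 and 77288, spread over 20428 gene identifiers. Of the 167 member peaks, 166 lay within 1000 nt of the interval of the same gene in a RefSeq table (GRCh38.p14), on its strand. The exception was an HSP90B1 intron peak of 5 tags in replicate 2 at chr12:103949100-103949150, downstream of the RefSeq interval.

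Jurkat is a human T-cell acute lymphoblastic leukemia (T-ALL) line. In iRIP-seq, UV light links proteins to RNA in the cells, an anti-IGF2BP2 antibody pulls the protein down, and the RNA that comes with it is sequenced. The labels give 2 iRIP libraries and 2 input libraries of Jurkat cells grown in RPMI-1640 medium with serum and antibiotics, and no treatment, knockdown or time course. The inputs were not analysed here, so the libraries form 1 condition, no groups were compared, and nothing in the labels says whether the replicates came from separate cultures.

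Heat shock proteins are molecular chaperones, which bind unfolded or partly folded proteins and help them reach or regain their native shape, mostly in cycles driven by ATP. The HSP90 class acts late in folding, on clients such as kinases and hormone receptors. The HSP70 class acts earlier and on most proteins, with exchange factors that release ADP from it, and the HSP60 chaperonin of mitochondria encloses single proteins under a lid. IGF2BP2 is a cytoplasmic mRNA-binding protein that has been described as a reader of the N6-methyladenosine mark on mRNA.

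The height of a peak is given in tags, the measure the authors deposited for each peak. Peaks were listed in bins of 50 nt, and tags multiplied by the number of bins came out whole (within 0.01) for all peaks of both lists, so the height of a longer peak is read here as a mean over its bins. The lowest height listed was 4 tags in replicate 1 and 5 in replicate 2. Read totals are not in the lists, so the depth of each library is unknown and heights are as listed. RNA abundance was not analysed here, so the height of a peak cannot be told apart from the abundance of its RNA. In a bulk sample, fewer cells that hold an RNA cannot be told apart from less RNA per cell. Of 12 T-cell genes, 9 (75.0%) had a sense peak in both replicates. Among all identifiers with a sense peak in either library the share was 59.5 percent. Among those with a CDS or UTR peak in either it was 81.6 percent, so the T-cell count lay between these backgrounds. CD2 and CD28 had a peak in a single replicate, and no peak was named for LAT. Of 7 genes of other blood cells none had a peak in both replicates, and 3 of them (MS4A1, CD79A and MPO) had a peak of 5 tags, the lowest height listed, in replicate 2.

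At 5 of the 14 annotated transcription starts of the members, a sense peak met the first 50 transcribed bases in at least 1 replicate. The sequence of these starts is shown because it is where the highest HSP90AA1 and HSPA8 peaks of replicate 2 begin, and where the broad first HSP90B1 peak lies. Each line gives 30 bases of the RNA-like strand, 5′ to 3′, from RefSeq (GRCh38.p14). These are bases 1 to 30 of the transcript for HSP90B1 and bases 21 to 50 for the others. Capitals mark GGAN (GGA and any base), the form of motif that the study names for IGF2BP2, of which GGAC is the N6-methyladenosine core.
HSP90AA1, chr14:102086995-102087024, minus strand: gtggctgtgccgttggtcctgtgcggtcac
HSP90AB1, chr6:44247121-44247150, plus strand: agtgttgGGACtgtctgggtatcGGAAagc
HSP90B1, chr12:103930410-103930439, plus strand: agtgggcGGACcgcgcggctGGAGgtgtga
HSPA8, chr11:123062087-123062116, minus strand: ctcttgggttttttgtggcttccttcgtta
HSPD1, chr2:197499791-197499820, minus strand: cctgtctcgccgagcgcacgccttgccgcc
GGAC stood in the first 50 bases of 4 of the 14 member starts and of 2 of these 5 starts, those of HSP90AB1 and HSP90B1. Over 35116 annotated starts of all genes, 18.9% held GGAC in the first 50 bases and 17.6% held it on the opposite strand in the same window. The shorter GGA, which lies within GGAC, was in 66.6% of the starts and, on the opposite strand, in 59.7%. The peaks met the windows unequally. They took in all 50 bases at the starts of HSP90B1 (both replicates) and HSP90AB1 (replicate 2 alone, 6 tags), bases 37 to 50 at HSPA8, bases 45 to 50 at HSP90AA1, and bases 41 to 50 at HSPD1 (replicate 2 alone, 8 tags). A match in these windows is a description of the letters and not a binding site.

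The HSP90 genes held 42 of the 78 member peaks (53.8%) in replicate 1 and 48 of 89 (53.9%) in replicate 2. HSP90AA1 (chr14:102080742-102139749, minus strand) encodes the stress-inducible cytosolic HSP90. It had 15 peaks in replicate 1 and 18 in replicate 2, with a median height of 5.67 and 7.33 tags. Its highest peak stood at the same place in both libraries, chr14:102086950-102087000, 44 to 94 nt after an annotated start, with 30 tags in replicate 1 and 32 in replicate 2. By the authors' regions 30% of this peak was 5′UTR and 70% intron. Only 30 of 16756 genes in replicate 1 and 108 of 15826 in replicate 2 had a higher peak. The next highest HSP90AA1 peak in replicate 1, at 11 tags, was mainly CDS, and in replicate 2 its bins were part of a peak of 351 nt with a mean of 12.9 tags. At chr14:102082100-102082150, in CDS near the 3′ end, the peak had 10 tags in replicate 1 and 21 in replicate 2. All HSP90AA1 peaks but 3, which were intron peaks of 4 to 6 tags, fell in the segment downstream of the start at 102087044 and not in the long upstream part of the gene interval.

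HSP90AB1 (chr6:44246194-44253883, plus strand) encodes the constitutive cytosolic HSP90. It had 17 peaks in replicate 1 and 13 in replicate 2, and 13 and 10 of them were mainly CDS. Its highest peak in replicate 1 had 22 tags at chr6:44249350-44249400, on a junction that was 48% CDS and 52% intron. In replicate 2 this bin was part of a peak of 251 nt with a mean of 11.8 tags. The highest replicate 2 peaks had 17 tags, at chr6:44251000-44251050 and chr6:44251400-44251450. The first of these was the same interval in replicate 1 with 10 tags, and was 94% intron. At chr6:44248600-44248750, over the start of the CDS, the mean height was 6.33 tags in replicate 1 and 14.3 in replicate 2. The peaks of HSP90AB1 were thus spread along the coding part of the gene, and 12 of the 17 replicate 1 peaks were met by a replicate 2 peak. Between positions 44251850 and 44253000 replicate 2 had no peak, where replicate 1 had 2 CDS peaks of 8 and 6 tags.

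HSP90B1 (chr12:103930410-103947926, plus strand) encodes the HSP90 of the endoplasmic reticulum, GRP94. It had 10 peaks in replicate 1 and 17 in replicate 2, with a median height of 7.50 and 10.0 tags. Its highest peaks did not match between the libraries. In replicate 2 it had the highest peak of any member, 45 tags at chr12:103931500-103931600 (80% CDS), where replicate 1 had no peak. A further replicate 2 peak of 20 tags at chr12:103939500-103939550 (84% CDS) was also without a partner. In replicate 1 the highest was 16 tags at chr12:103943700-103943750, inside a replicate 2 peak of 17 tags. The peak over the transcription start had 14.7 tags over 151 nt in replicate 1 and 16.2 tags over 301 nt in replicate 2, and was mainly 5′UTR in both. At chr12:103932250-103932300 the height was 8 tags in replicate 1 and 23 in replicate 2. Of the 10 replicate 1 peaks of HSP90B1, 8 were thus met in replicate 2, while the tallest single site of the gene was listed in replicate 2 alone. Whether the missing replicate 1 site was below the height called or was removed for overlapping an input peak was not tested.

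**Figure D1:**
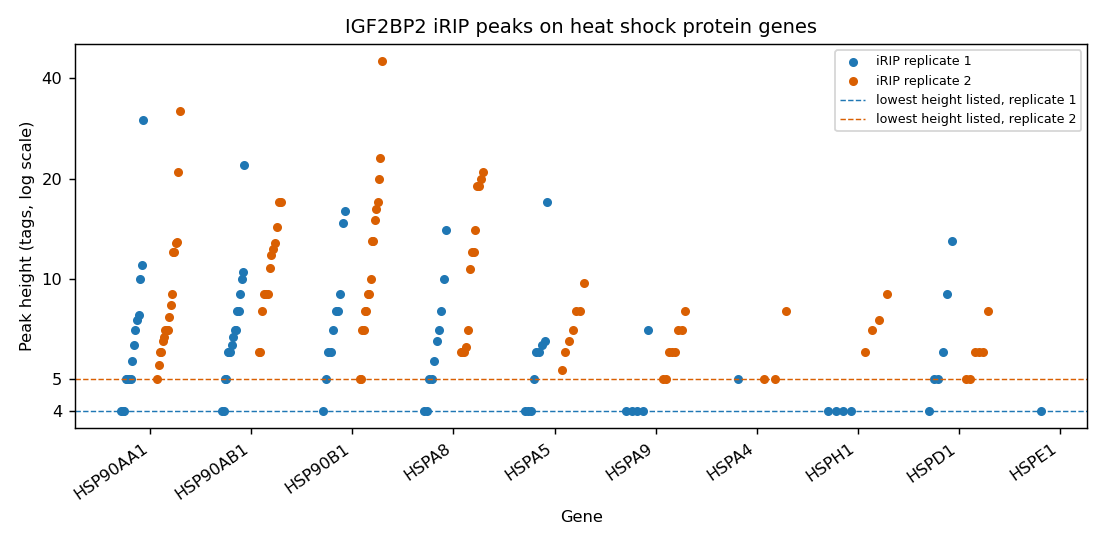
Height of each sense peak (vertical axis, tags) on each of the 10 heat shock protein genes (horizontal axis), with replicate 1 and replicate 2 side by side and 1 point per peak. HSP90B1 reaches 45 tags in replicate 2 and HSP90AA1 30 and 32 tags, while HSPE1 has 1 peak of 4 tags in replicate 1 and none in replicate 2.

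HSPA8 (chr11:123057489-123062462, minus strand) encodes HSC70, the constitutive cytosolic HSP70. It had 10 peaks in replicate 1 and 13 in replicate 2, with 7 and 10 of them mainly CDS. The highest replicate 1 peak, 14 tags at chr11:123059750-123059800, lay wholly in CDS and had 19 tags in replicate 2 at the same interval. The highest replicate 2 peak, 21 tags at chr11:123062050-123062100, was 74% 5′UTR, 36 to 86 nt after the start, and had 8 tags in replicate 1. Both sites were thus seen in both libraries, with their order turned. The median height of HSPA8 was 6.08 tags in replicate 1 and 12 in replicate 2, the highest median of a member in replicate 2. Of the peaks of HSPA8, 7 of 10 in replicate 1 were met by a replicate 2 peak.

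HSPA5 (chr9:125234853-125241343, minus strand) encodes BiP, the HSP70 of the endoplasmic reticulum. It had 9 peaks in replicate 1 and 7 in replicate 2, with a median of 6 and 7 tags. Its highest replicate 1 peak had 17 tags at chr9:125241000-125241050 (92% CDS), 293 to 343 nt after the start, and replicate 2 had no peak there. In replicate 2 the highest was 9.67 tags at chr9:125236900-125237050, in CDS toward the 3′ end. Only 3 HSPA5 peaks of each library met a peak of the other, and the highest site lay near the 5′ end in replicate 1 and toward the 3′ end in replicate 2. The shared sites were at the 5′UTR (6 tags in replicate 1, 8 in replicate 2), in a noncoding exon (6 and 7 tags) and at the end of the CDS (6.50 tags in both).

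HSPA9 (chr5:138553756-138575401, minus strand) encodes mortalin, the HSP70 of mitochondria, which takes part in protein import. It had 5 peaks in replicate 1, from 4 to 7 tags, and 8 in replicate 2, from 5 to 8 tags. The highest replicate 1 peak, at chr5:138573750-138573800, had 7 tags in both libraries. HSPA4 and HSPH1 encode exchange factors of the HSP110 group, relatives of HSP70 that release its nucleotide. HSPA4 (chr5:133052013-133106449, plus strand) had 1 peak of 5 tags in replicate 1 and 3 peaks of 5, 5 and 8 tags in replicate 2, at places that did not overlap. HSPH1 (chr13:31134973-31162388, minus strand) had 4 peaks in each replicate, all of 4 tags in replicate 1 and from 6 to 9 tags in replicate 2. Its site at chr13:31158800-31158850 (90% CDS) had 4 tags in replicate 1 and 9 in replicate 2. None of these 3 genes had a peak of 10 tags or more in either library.

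HSPD1 (chr2:197486584-197500274, minus strand) encodes HSP60, the chaperonin of mitochondria. It had 6 peaks in each replicate, with a highest peak of 13 tags in replicate 1 and 8 in replicate 2. The 13-tag peak, at chr2:197498650-197498700, was 52% CDS and was not met in replicate 2. The 8-tag peak, at chr2:197499750-197499800, lay 40 to 90 nt after the start and was not met in replicate 1. Shared HSPD1 sites were lower, at 5 to 9 tags. HSPE1 (chr2:197500379-197503449, plus strand) encodes HSP10, the lid of HSP60, and lies next to HSPD1 on the other strand. Its only peak was an intron peak of 4 tags, the lowest height listed, in replicate 1 at chr2:197502250-197502300, which also lies inside the readthrough gene HSPE1-MOB4. The partners of this chaperonin were thus unequal in the lists, with 12 peaks in all on HSPD1 and 1 on HSPE1. The gene intervals were also unequal, 13691 nt for HSPD1 and 3071 nt for HSPE1. The counts were not divided by length, and the part of length was not tested.

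Placed side by side, the highest peaks of the members spread widely within each library. The order in replicate 1 was HSP90AA1 (30 tags), HSP90AB1 (22), HSPA5 (17), HSP90B1 (16), HSPA8 (14), HSPD1 (13), HSPA9 (7), HSPA4 (5), and HSPH1 and HSPE1 (4 each). In replicate 2 it was HSP90B1 (45 tags), HSP90AA1 (32), HSPA8 (21), HSP90AB1 (17), HSPA5 (9.67), HSPH1 (9), then HSPA4, HSPA9 and HSPD1 (8 each), and no HSPE1 peak. HSP90AA1, HSP90AB1, HSP90B1 and HSPA8 thus held 4 of the 5 highest places in replicate 1 and the first 4 in replicate 2, but their order among themselves was not kept. With 1 value per library, neighbours in these orders cannot be separated by their spread. Between the libraries the highest peak was higher in replicate 2 for 6 of the 9 genes with peaks in both and lower for 3 (HSP90AB1, HSPA5 and HSPD1). The 22-tag HSP90AB1 bin of replicate 1 lay in a replicate 2 peak of 5 bins, whose 11.8 tags are read as a mean. When tags were summed over all bins of a gene instead, HSP90AB1 (184), HSP90AA1 (172), HSP90B1 (118) and HSPA8 (106) led in replicate 1, and HSP90B1 (402), HSP90AA1 (397), HSP90AB1 (357) and HSPA8 (218) in replicate 2. The sums were not divided by gene length. Of the 3 genes with a lower highest peak in replicate 2, HSP90AB1 (184 and 357) and HSPA5 (78 and 95) had a higher sum there. HSPD1 (46 and 36) had a lower one.

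Member peaks were higher than the lists as a whole. The median height was 6 tags in replicate 1 and 8 in replicate 2 for members, against 4 and 5 for all sense peaks. Member peaks at the lowest height listed were 21 of 78 (26.9%) and 9 of 89 (10.1%), against 66.8% and 54.4% of all sense peaks. Peaks of 10 tags or more were 12 (15.4%) and 30 (33.7%) on the members, against 2.73% and 8.75% of all sense peaks. Peaks longer than the shortest length of 51 nt were also more frequent on the members, at 23.1% in replicate 1 and 31.5% in replicate 2 against 4.93% and 8.24% of all sense peaks. The longest member peak, on HSP90AA1 in replicate 2, was 351 nt. Introns held only a minority of the member peaks, so the sets also differed in their mix of regions. Height and length were not compared with a background of exon peaks alone. The part of region in these differences was therefore not tested, and no trait of the members is read from them. No test was made of these differences, since peaks of a gene share their transcript and the members are few.

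All 10 members had a sense peak in replicate 1 and 9 of 10 in both replicates, against a background of 59.5 percent of the 20428 identifiers with a sense peak in either library, and of 81.6 percent of the 7980 identifiers with a CDS or UTR peak in either. HSPE1 was the member without a replicate 2 peak. On 4 of 10 members each library held a peak of 10 tags or more (HSP90AA1, HSP90AB1, HSP90B1 and HSPA8), against a background of 3.96 percent of all those identifiers and 9.76 percent of those with a CDS or UTR peak. The first count was near the second of its backgrounds, and the count at 10 tags was above both of its backgrounds. In replicate 1 alone 6 members passed 10 tags, HSPA5 and HSPD1 in addition, against a background of 5.54 percent of the genes with a sense peak there. In replicate 2 alone it was the same 4 members as in both, against 13.7 percent.

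**Figure D2:**
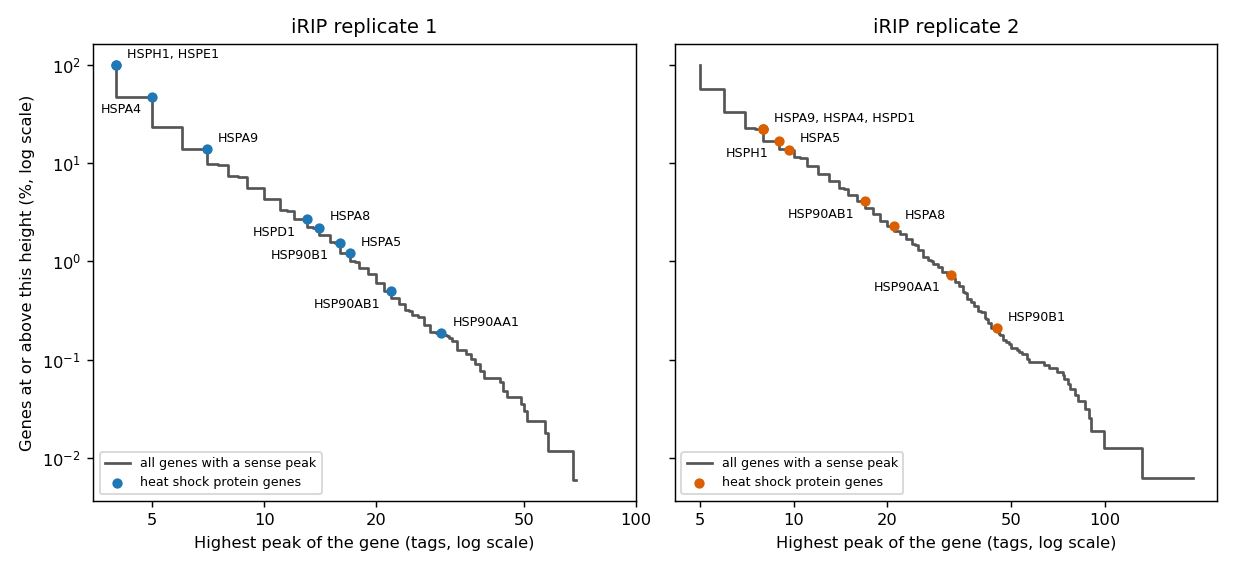
Share of genes with a sense peak whose highest peak is at or above a given height (vertical axis, percent, log scale) against that height (horizontal axis, tags, log scale), with the heat shock protein genes as points on the curve of each replicate. HSP90AA1 at 30 tags is exceeded by 30 of 16756 genes in replicate 1 and HSP90B1 at 45 tags by 31 of 15826 in replicate 2, while HSPH1 and HSPE1 lie at the lowest height of replicate 1.

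The member peaks lay mainly in coding sequence. Mainly CDS peaks were 50 of 78 in replicate 1 (64.1%, 95% Wilson interval 53.0% to 73.9%) and 51 of 89 in replicate 2 (57.3%, 46.9% to 67.1%), with a mean of 60.7% ± 4.81 (SD, n = 2). The background over all sense peaks was 19.9 percent in replicate 1 and 25.6 percent in replicate 2. Most of that background was intron peaks, 51382 of 74237 in replicate 1 and 48205 of 77288 in replicate 2. On the members intron peaks were 13 of 78 and 15 of 89. The other background peaks of replicate 1 were 14772 CDS, 2063 5′UTR, 2709 3′UTR and 3311 noncoding exon. In replicate 2 they were 19750, 2577, 3088 and 3668, so CDS also led among all peaks outside introns. The CDS shares of members and of all genes outside introns were not compared. No excess of CDS on the members is therefore read from the shares that include introns. The libraries differed by -6.80 points, which was not resolved by a two-sided Fisher's exact test on the peaks (p = 0.429). This test compares the libraries and not conditions, and peaks of 1 gene share their transcript. Wilson intervals reflect counting error alone, and PCR copies of a molecule are not independent of each other. Some CDS was present in 82.1% and 83.1% of the member peaks, against 27.5% and 35.5% of all sense peaks, intron peaks included.

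The other member peaks were divided among introns (13 in replicate 1 and 15 in replicate 2), noncoding exons (9 and 14), 5′UTR (3 and 6) and 3′UTR (3 and 3). Over all member peaks, those mainly in CDS included, peaks with both exon and intron parts were 32.1% in replicate 1 and 36.0% in replicate 2, against 17.1% and 23.0% of all sense peaks. Most peaks of that background were mainly intron. The shares among peaks with an exon part were not compared, so no excess on the members is read from these values. The noncoding-exon peaks, where the annotation holds an exon of a transcript without coding sequence, were in HSP90B1 (4 and 5), HSPA5 (2 and 2), HSPD1 (2 and 3) and HSP90AA1 (1 and 4). HSP90AB1 had none of them. On HSPA9, mainly CDS peaks were 5 of 5 in replicate 1 and 6 of 8 in replicate 2.

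Within 300 nt downstream of an annotated start lay 6 of the 78 member peaks (7.69%) in replicate 1 and 8 of 89 (8.99%) in replicate 2. A peak was counted when its 5′ edge lay in that window or when it covered the start, for members and backgrounds alike. For all sense peaks on named protein-coding genes the shares were 4.24% and 5.10%. The highest peak of the gene lay in that window for 2 of 10 members in replicate 1 (HSP90AA1 and HSPA5) and for 3 of 9 in replicate 2 (HSP90AA1, HSPA8 and HSPD1), against a background of 7.47 percent and 9.64 percent of named genes. HSP90AA1 was the member for which this was so in both libraries. The HSPA5 peak, 293 to 343 nt after the start, was counted by its 5′ edge and lay mostly beyond the window. At matched height the backgrounds were higher. Among genes whose highest peak had 10 tags or more, it lay in the window for 16.6 percent in replicate 1 and 15.8 percent in replicate 2, and for 2 of 6 and 2 of 4 such members. Among single peaks of 10 tags or more, 3 of 12 member peaks in replicate 1 lay in the window against 13.0% of all, and 3 of 30 in replicate 2 against 9.91%, so the replicate 2 share was near its background. Any peak in the window was present on 5 members in replicate 1 and on 6 in replicate 2, with HSPD1 the addition, against 19.4 percent and 26 percent of named genes. The members have more peaks than most genes, and among genes of 5 peaks or more, a minimum set after these values were seen, the background was 32.9 percent and 43 percent. Of the 7 members with that many peaks, 5 in replicate 1 and 6 in replicate 2 had one in the window.

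Of the 78 member peaks of replicate 1, 47 (60.3%, 95% Wilson interval 49.2% to 70.4%) shared 1 bp or more with a replicate 2 peak of the same strand, against a background of 16.6 percent of all sense peaks. In the other direction 46 of 89 (51.7%, 41.5% to 61.8%) were met, against 15.8 percent. Among all CDS peaks the shares were 45.8% and 35%, which is nearer to the members. Among peaks of at least 10 tags, 9 of 12 (75.0%) and 23 of 30 (76.7%) member peaks were met, against 73.5% and 62.4% of all such sense peaks. Lower member peaks were met in 57.6% and 39.0% of cases. Overlap on the members was most frequent for HSP90B1 in replicate 1 (8 of 10) and HSP90AB1 in replicate 2 (11 of 13), and was absent for HSPA4 and HSPE1. Peak height and region both moved with overlap, and their part in the share on the members was not tested.

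Exactly the same interval was listed in both libraries 23 times on the members. Heights were greater in replicate 2 at 19 of these, lower at 3 and equal at 1. The median ratio was 1.5 (0.58 on the log2 scale), and over all 8370 shared sense intervals it was 1.43 (0.51 on the log2 scale). The 3 that were lower were 1 in HSP90B1 (7 tags to 5) and 2 in HSPD1 (6 to 5 and 9 to 6), and HSPA9 held the equal one. Over the 23 intervals the heights of the libraries had a Pearson correlation of 0.77 and a Spearman correlation of 0.65, against 0.64 and 0.43 over all shared sense intervals. These are descriptions over intervals of a few genes from 2 libraries, without a test. The HSP90AA1 start peak, at 30 and 32 tags, stood apart from the other member intervals, and no correlation without it is given. The greater heights of replicate 2 on the members were thus of the same order as those of the whole list.

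Of the other chaperone genes, 62 were listed and 56 had a peak in either library under their own name. A sense peak in both replicates was present on 44 of the 62 (71.0%), between the 59.5 percent of all identifiers and the 81.6 percent of those with a CDS or UTR peak. At 10 tags or more in each library there were 15 of the 62, and 4 of the 10 members. The background at that height was 3.96 percent of all identifiers and 9.76 percent of those with a CDS or UTR peak. The median highest peak of the genes with peaks in both was 6 tags in replicate 1 and 9 in replicate 2 for the other chaperones and 14.0 and 9.67 tags for the members, and 5 and 6 tags over all genes. The member median therefore exceeded that of the other chaperones in replicate 1 and lay close to it in replicate 2, without a test. The 8 genes of TRiC, the cytosolic chaperonin, all had peaks in both replicates, with medians of 6.50 and 11.0 tags. At 10 tags or more in each library there were 3 of the 8. The other chaperones and TRiC were thus above the backgrounds at 10 tags, so this was not particular to the members.

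Ranked by the lower of the libraries' highest peaks, the leading other chaperone genes were LONP1 (21 and 33 tags), a mitochondrial protease, CDC37 (18 and 34), which brings kinases to HSP90, HSF1 (17 and 22), the transcription factor of the heat shock response, BAG6 (15 and 14), which guards membrane proteins on the way to the endoplasmic reticulum, and DNAJB6 (15 and 14), an HSP40 cofactor of HSP70. Of the members HSP90AA1 alone was above all of them on that measure, with 30 tags. HSP90AB1 (17) and HSP90B1 (16) lay among them, and HSPA8 (14) was level with BAG6 and DNAJB6. HSPA1A and HSPA1B, the stress-inducible HSP70 genes, chosen for mention after their values were seen, are near-identical, so reads between them are uncertain. HSPA1B had 3 and 2 peaks of up to 12.5 and 13.8 tags, and HSPA1A 0 and 1. The protein-coding genes closest to HSP90AA1 by the lower highest peak over 2 libraries were PPP6R1 (44 and 30 tags), PFN1 (31 and 43), RANBP1 (29 and 38), SPTBN1 (32 and 29) and RPS19 (31.5 and 38), a measure that says nothing of shared function.

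Several members have processed copies in the genome, and the authors kept only uniquely mapped reads. RefSeq lists 28 pseudogenes for HSPE1, 22 for HSPD1, 20 for HSPA8, 6 for HSP90AB1 and 5 for HSP90AA1, with 86 over all members and none for HSPA4 and HSPH1. Peaks lay on 6 of the 86 copies in each library, with at most 4 tags in replicate 1 and 11 tags, on an HSP90AA1 copy, in replicate 2. HSPE1, the member with the most copies, was also the one with the fewest peaks, and HSPA8, with 20 copies, was among those with the most. The part of copies in these counts was not tested, and the heights of members with copies are uncertain for reads that fit both.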

How the data were processed

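Peak lists of 2 IGF2BP2 iRIP libraries of Jurkat cells were used, and the 2 input libraries were not analysed here. The authors sequenced read pairs of 150 bp and aligned them with TopHat 2. They kept uniquely mapped reads, called peaks in each library by the ABLIRC strategy with simulated reads per gene, and dropped those overlapping a peak of the input. The submitters' processing notes name GRCh38, TopHat 2 and bcl2fastq. Heights were deposited as a signal in tags with no scaling for depth stated, and the p-values the authors deposited served as a filter alone. Regions and gene identifiers are the authors' own.

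Peaks were read from the lists, assigned to genes by identifier, and checked against the gene intervals and strands of a RefSeq table. Other genes were named by position. Where an identifier had CDS or UTR peaks, the protein-coding gene holding 80% or more of these (margin 1000 nt) gave its name, if there was a single such gene, and the remainder were named by a single protein-coding gene that held all their peaks. This named 12665 of 20428 identifiers. Overlap required 1 bp on the same strand, with intervals read as half-open. Wilson intervals are at 95%. The CDS shares were compared by a two-sided Fisher's exact test. Sequence was read only around annotated starts, from a RefSeq table, and the motif was counted there and not under the peaks elsewhere. Counting and overlap functions were tested on simulated data. Python 3.11.15, numpy 2.4.6, pandas 2.3.3, scipy 1.17.1 and matplotlib 3.10.9 were used.

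The members and lists were chosen with earlier results of these data known. All 10 members were named, with the 5 other chaperone genes and the 5 non-member genes given by the ranking rules in the text. The alternatives were minimum heights, a p value under 0.001, exonic peaks, assignment by position, other overlap rules, weighting by length and each replicate left out.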

Additional observations from a re-analysis of the deposited data

Results flagged for a closer look

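Antisense peaks, which the comparisons above do not use, were present on the heat shock protein genes. In replicate 1 there were 6, all of 4 tags, the lowest height listed: 2 on HSP90AA1, 1 on HSP90AB1, 2 on HSPA4 and 1 on HSPH1. In replicate 2 there was 1, of 7 tags, on HSP90AA1. The inputs were not analysed here, so these peaks could not be set against a control, and their source was not tested. The share of antisense peaks over the whole lists is not given here, so these counts have no background beside them.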

How the results depend on the processing

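Of 49 alternatives, 34 kept the result close (counts within 1.5 times the value reported, shares within their error) and 15 moved it further. Under a height of at least 10 tags, the member peaks fell from 78 to 12 in replicate 1 and from 89 to 30 in replicate 2, members with a peak in both from 9 to 4, other chaperones from 44 to 15 and TRiC genes from 8 to 3, while the overlap of replicate 1 peaks rose from 60.3% to 75.0%. Under a height of at least 2 times the lowest of the list these counts were 20, 30, 4, 17 and 3. Under a p value below 0.001 the peaks numbered 32 and 55, other chaperones 25 and TRiC genes 5. The other alternatives, among them exonic peaks, position in place of identifier and the overlap rules, kept their results that close. With each replicate left out in turn, members with a peak ranged from 9 to 10, members at 10 tags or more from 4 to 6 (6 without replicate 2), the CDS share from 57.3% to 64.1%, other chaperones from 49 to 51, and TRiC genes stayed at 8. Touching peaks counted as overlapping (66.7%), a minimum of 8 tags (6 members in both) and tags summed per gene were chosen after seeing the data. At 8 tags in both libraries the background was 1387 of 20428 identifiers, and 1329 of the 7980 with a CDS or UTR peak. The cause of these movements was not tested beyond the filters themselves, which keep fewer peaks. No paired analysis was possible because values of only 1 group, the iRIP libraries, were at hand, and the input libraries that share their numbers were not analysed here. GGAC in the peaks themselves was not run, since sequence was used only around annotated starts. Depth is unknown, so a site seen in 1 library only may lie below the height called in the other.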

Other observations

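The gene intervals of HSPA8, HSPA9 and HSPD1 hold small nucleolar RNAs. No peak of either library, on either strand, overlapped SNORD14C, SNORD14D or SNORD14E in HSPA8, SNORD63 or SNORD63B in HSPA9, or SNORA105B in HSPD1. The intron peaks of the members numbered 13 in replicate 1 and 15 in replicate 2.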
